A study of Mus musculus with 43 samples.

Results

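The collagen chains read by the array were followed across fetal and newborn mouse gonads. Members were all genes whose only symbol in the array's probe table has the form of a collagen chain name (Col, a number, the letter a, a number). That rule gave 41 genes on 79 probe sets, of 18184 genes on 45007 probe sets in all, and a gene was read from the brightest of its probe sets, by the mean of all arrays. The rule itself reads only the symbol. By class they were 11 fibrillar chains, 6 chains of basement membrane type IV, 3 chains of the basement membrane zone, 5 chains of type VI, 8 fibril-associated chains, 3 short-chain network chains, 4 transmembrane chains and 1 other chain.

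Whole gonads without adnexa were hybridised to Affymetrix MOE430 v.2 arrays, 1 mouse per array, in 43 arrays and 15 groups of 3 arrays, or of 2 for the E15 groups. Testes were taken at E13 and at birth (P0), and ovaries at E13, E15, E16 and P0. Mutant ovaries were Foxl2-/- at E13, E16 and P0, Foxl2+/- at E16, Wnt4-/- at E15 and P0, KitWvWv at P0, and at P0 the combinations Wnt4-/-Foxl2-/- and KitWvWv Foxl2-/-. The E13 control ovaries carry the label Foxl2+/-, whereas the study's methods call the controls wild-type littermates. The E15 controls were Wnt4+/-, and the Wnt4-/- and KitWvWv ovaries of P0 were also Foxl2+/-. The E16 and P0 control ovaries and the testes carry no genotype label. By the methods the P0 testes, unlike those of E13, came from Wnt4-null mice, whose testes are partly abnormal, so stage and Wnt4 genotype cannot be told apart in the testis. The comparison of Wnt4-/- or KitWvWv ovaries with P0 controls therefore also spans the loss of 1 Foxl2 allele by the labels. From E13 to later stages the control ovaries likewise differ in the Foxl2 label, so stage and Foxl2 dose cannot be told apart between these controls. At E16 the Foxl2+/- ovaries share the label of the E13 controls. The KitWv allele is hypomorphic and leaves few germ cells. The E15 mice were of another strain mixture (C57BL/6J and 129) than the rest (C57BL/6J, NIH-Swiss/BC and CD1), so E15 was tested only within itself. The ranges of group means and the correlations between chains do include the E15 groups, and with them the strain difference.

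Collagens are trimers of alpha chains wound around each other. Types I, III and V form the striated fibrils of connective tissue, and type IV forms the sheet of basement membranes, as several chain combinations whose genes lie head to head in pairs. In the fetal testis a basement membrane surrounds the cords of Sertoli and germ cells, with peritubular cells outside it, whereas the fetal ovary holds looser nests of germ cells. FOXL2 is a forkhead transcription factor of ovarian supporting cells and WNT4 is a secreted signal that opposes testis development.

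Promoter windows of 33 members were at hand from RefSeq (GRCm38.p6), each from 250 bases before to 50 after a gene start. Col4a1 and Col4a2, whose levels moved together across the groups, are printed because they share their promoter. Capitals mark the 78 bases that lie in both windows, read from opposite strands. The windows are chr8:11312777-11313076 on the minus strand for Col4a1 and chr8:11312555-11312854 on the plus strand for Col4a2. Col8a1, the 1 collagen called lower without Foxl2, is at chr16:57754688-57754987 on the minus strand, and its capitals mark the Sp motif GGGCGG or its complement.
Col4a1: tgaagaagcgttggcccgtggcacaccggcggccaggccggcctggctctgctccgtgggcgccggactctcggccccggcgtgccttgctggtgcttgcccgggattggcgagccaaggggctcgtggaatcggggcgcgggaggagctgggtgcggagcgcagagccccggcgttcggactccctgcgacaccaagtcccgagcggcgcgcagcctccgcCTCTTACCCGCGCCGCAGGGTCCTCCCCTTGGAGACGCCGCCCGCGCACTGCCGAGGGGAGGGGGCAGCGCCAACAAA
Col4a2: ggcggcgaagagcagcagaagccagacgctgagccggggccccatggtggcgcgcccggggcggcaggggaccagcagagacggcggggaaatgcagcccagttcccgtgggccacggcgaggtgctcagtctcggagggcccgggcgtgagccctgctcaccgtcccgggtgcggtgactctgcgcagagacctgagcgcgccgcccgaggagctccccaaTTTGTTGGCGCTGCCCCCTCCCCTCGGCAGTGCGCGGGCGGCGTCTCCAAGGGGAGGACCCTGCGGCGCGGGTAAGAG
Col8a1: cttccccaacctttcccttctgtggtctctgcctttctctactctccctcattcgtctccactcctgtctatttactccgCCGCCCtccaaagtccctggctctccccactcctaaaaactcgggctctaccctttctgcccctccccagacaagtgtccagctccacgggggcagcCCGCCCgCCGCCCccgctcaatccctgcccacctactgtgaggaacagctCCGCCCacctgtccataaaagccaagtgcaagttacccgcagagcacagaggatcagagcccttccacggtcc
Motifs were searched on either strand. GGGCGG was in 22 of the 36 member windows (61.1%), against 35.7% of all 32851 windows. CCAAT was in 13 (36.1% against 37.4%). The forkhead core GTAAACA was in 1 member window, that of Col6a1 (2.78% against 3.65%), and the Sox core ACAATG was in 0 (12.6% of all windows). GTAAACA is not in the Col8a1 window. These matches describe letters in short windows.

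Signals are given as multiples of the arrays' common mean, and differences on the log2 scale after adding 0.01 of that mean, with the SE of a limma fit over all 43 arrays. A gene was called at an adjusted p under 0.05 over all probe sets. Such a fit understates the change of dim genes, and signals of different probe sets are not compared as levels. Foxl2 and Wnt4 were lower in the ovaries that lacked them, and Kit was not read. Foxl2 was between 0.606 and 2.77 in ovaries with Foxl2-/- alone and between 5.31 and 16.8 in the matching controls, and Wnt4 was between 0.200 and 0.414 in ovaries with Wnt4-/- alone against 0.581 to 1.31 in theirs. In the double mutants Foxl2 was 0.682 to 0.826 with Wnt4-/- and 3.56 to 7.64 with KitWvWv, against 5.13 to 5.90 and 19.5 to 32.6 in the single mutants. Some arrays stood apart. Summed striated muscle markers reached 16.4 in Foxl2-/- E13 replicate 2 and at most 3.43 in E13 controls. Summed germ cell markers reached 22.8 in KitWvWv replicate 3, of a lowest 1.42 in that group. Erythroid markers reached 31.3 in Foxl2-/- and 31.1 in Foxl2+/- ovaries at E16, and 1.79 in their controls. In the E15 control ovaries they reached 11.5. The median over all probe sets also moved by more than 0.1 in 5 comparisons, and the text gives each such shift beside the counts. In whole gonads a change in cell number and a change in RNA per cell cannot be told apart.

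**Figure D1:**
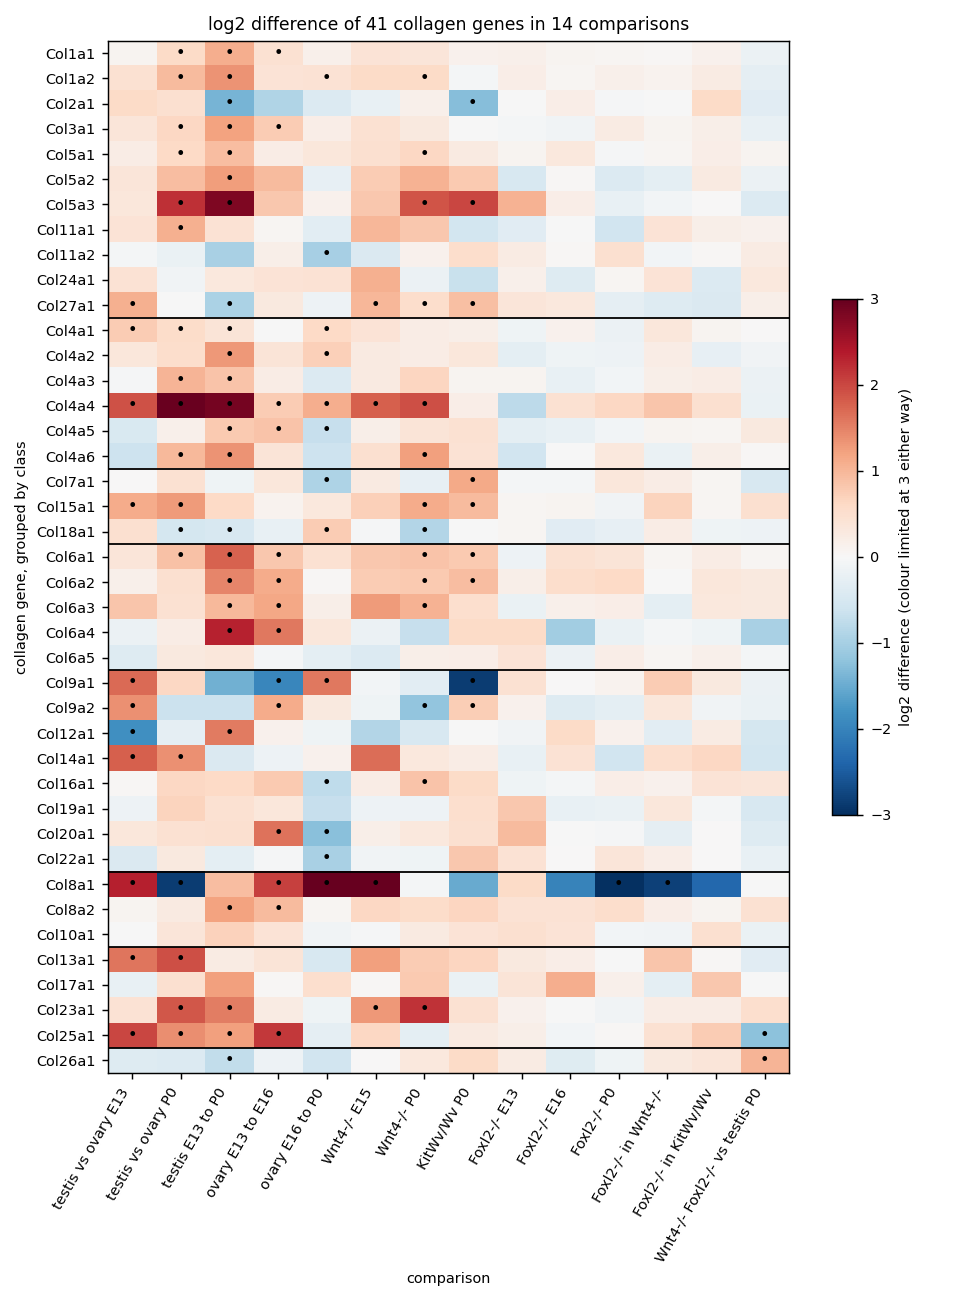
The rows are the 41 collagen genes, grouped by class with lines between classes, and the columns are 14 comparisons. Colour gives the log2 difference of the first group named against its control or earlier stage (red higher, blue lower, limited at 3 either way) and a dot marks an adjusted p under 0.05. The Foxl2-/- columns hold dots only for Col8a1, whereas the testis, stage and Wnt4-/- columns hold many.

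Col8a1, a chain of the short network collagen type VIII, was far lower in newborn ovaries without Foxl2 and was the 1 collagen called in that comparison. In control ovaries at P0 its signal was 1.36, 1.91 and 1.90 in the 3 arrays. In Foxl2-/- ovaries at P0 it was 0.0622, 0.0117 and 0.0795. The groups do not overlap, and the difference was -5.04 ± 0.65 (SE; 32.9-fold on the fitted scale, adjusted p = 7.0e-06), with 0.825% of all genes called either way in that comparison, 0.247% higher and 0.577% lower. Each of the 6 arrays could be left out and the call held, with adjusted p from 2.09e-05 to 0.00035. Since the Foxl2-/- arrays lie near the added constant, the size depends on it, at -4.18 with 5% of the mean and -5.46 with 16 units, both called. All 3 Col8a1 probe sets fell, by 5.04, 5.28 and 2.07. Of the other cell type markers, 2 of 8 Sertoli markers rose, 1 of 5 Leydig markers fell and 0 of 6 stroma markers were called. Summed stroma levels were 12.5 to 15.0 in Foxl2-/- ovaries against 9.52 to 16.6 in controls. Summed Sertoli levels were lower without Foxl2, at 7.17 to 10.84 against 10.90 to 14.03. The median difference over the 8 Sertoli markers went the other way, at 0.431.

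At E13, when Col8a1 was dim, the Foxl2-/- ovaries held 0.0691, 0.0278 and 0.00616 against 0.0283, 0.0125 and 0.00702 in controls, and the groups overlapped (0.57 ± 0.65, adjusted p = 0.68). By the labels these controls were Foxl2+/-, so a change already present in Foxl2+/- ovaries would not show in this comparison. At E16 the Foxl2-/- arrays were 0.00484, 0.0388 and 0.0117 against 0.0654, 0.0860 and 0.132 in controls. These do not overlap, but the difference of -2.01 ± 0.65 did not pass (adjusted p = 0.29). The Foxl2+/- ovaries of E16 held 0.0151, 0.0113 and 0.0387, below every control array, and this did not pass either (-1.77 ± 0.65, adjusted p = 0.73). Averaged over the 3 stages, Col8a1 fell by 2.16 ± 0.37 (adjusted p = 0.00065), 1 of 41 collagens called, against 1.86% of all genes (0.748% higher and 1.12% lower). That average joins E13 controls labelled Foxl2+/- with E16 and P0 controls that carry no genotype label. Col6a2 (0.44 ± 0.12, adjusted p = 0.064) and Col8a2, the partner chain of Col8a1 (0.47 ± 0.15, adjusted p = 0.11), were not called. At E16 no collagen of 41 was called (0.66% of all genes, 0.396% higher and 0.264% lower), 7 of 41 had an unadjusted p under 0.05 by limma, and erythroid markers rose 3 of 5. In Foxl2+/- ovaries the count was also 0, 3 of 41 had an unadjusted p under 0.05, and 0.0055% of all genes were called. At E13 the count was also 0 (1.4% of all genes, 0.495% higher and 0.902% lower; 6 with an unadjusted p under 0.05).

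At E13 Col4a4, a type IV chain, was 0.0703, 0.0590 and 0.0554 in Foxl2-/- ovaries against 0.146, 0.106 and 0.0916 in controls. The groups do not overlap and the difference of -0.78 ± 0.22 stood at the threshold (adjusted p = 0.051). The titles name no litter, and E13 arrays of the same replicate number were taken as paired from correlations of 0.132 to 0.158. The main fit did not use this pairing. With the replicate number as a block in limma Col4a4 was called (adjusted p = 0.033). Its 2 other probe sets were at 0.13 and 0.09, not called. At P0 the sign was the other way, with 0.764, 0.833 and 0.470 against 0.385, 0.412 and 0.495 (0.63 ± 0.22, adjusted p = 0.31). By the labels the E13 controls were Foxl2+/-, and the P0 controls carry no genotype label.

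**Figure D2:**
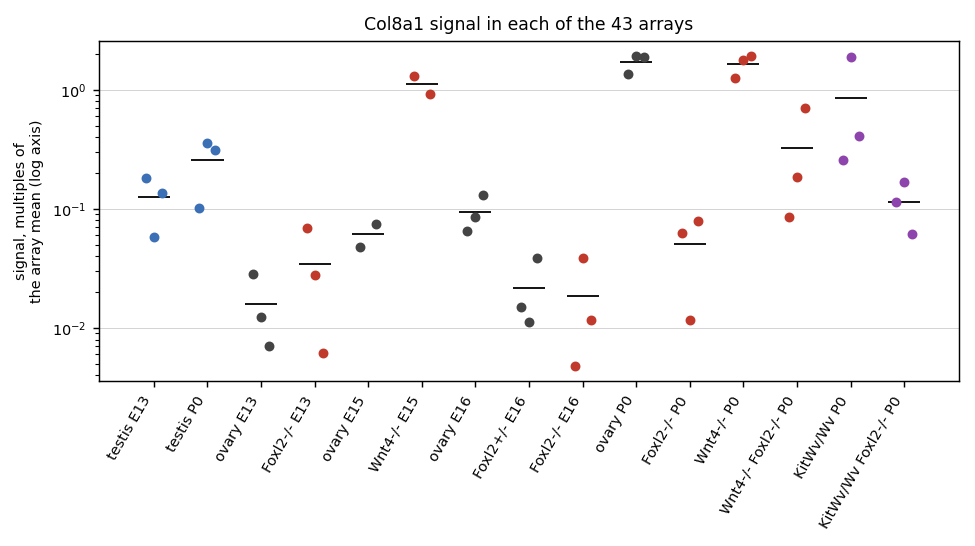
The horizontal axis names the 15 groups and the vertical axis, on a log scale, is the Col8a1 signal in multiples of the array mean, with 1 point per array and a bar at the group mean. Control and Wnt4-/- ovaries of P0 and Wnt4-/- ovaries of E15 stand near 1, from 0.92 to 1.92, and Foxl2-/- ovaries of P0 at 0.0795 or less.

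Col8a1 also followed stage and gonad. It rose in control ovary from E13 to E16 (2.04 ± 0.65, adjusted p = 0.046) and from E16 to P0 (4.09 ± 0.65, adjusted p = 1.9e-05). The E13 to E16 call was lost when any of 5 of the 6 arrays was left out (adjusted p from 0.058 to 0.249) and with a constant of 5% (1.12, adjusted p = 0.144), whereas the E16 to P0 call held in every leave-out. By the labels the E13 controls were Foxl2+/-, and the Foxl2+/- ovaries of E16, at 0.0151, 0.0113 and 0.0387, overlap their 0.0283, 0.0125 and 0.00702. At the same label the 2 stages thus did not separate in these dim arrays, and that difference was not tested. In testes it was 0.182, 0.0580 and 0.136 at E13 and 0.102, 0.360 and 0.312 at P0. Against control ovaries it was thus higher in testis at E13 (2.34 ± 0.65, adjusted p = 0.021) and lower at P0 (-2.85 ± 0.65, adjusted p = 0.0011). With a larger constant of 5% of the mean the E13 value was 1.35 and no longer called (adjusted p = 0.089).

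Wnt4-/- ovaries had a high Col8a1 signal before birth. In the 2 Wnt4-/- ovaries of E15 it was 1.31 and 0.920 against 0.0483 and 0.0743 in controls, a difference of 3.98 ± 0.80 (15.8-fold on the fitted scale, adjusted p = 0.0036), and all 3 probe sets rose by at least 2.80. With a constant of 5% the difference was 3.38, still called. Without Wnt4-/- E15 replicate 1 the adjusted p was 0.081. At P0 the Wnt4-/- ovaries held 1.26, 1.78 and 1.92, overlapping the P0 controls (-0.07 ± 0.65). Removing Foxl2 as well gave 0.0851, 0.184 and 0.701, all below the Wnt4-/- arrays (-2.79 ± 0.65, adjusted p = 0.027). That call was lost when any of 4 of the 6 arrays was left out, and with a constant of 16 units in place of the main one (adjusted p = 0.13). In KitWvWv ovaries Col8a1 was 0.259, 1.90 and 0.413, spread over both ranges (-1.51 ± 0.65, adjusted p = 0.081). With Foxl2 also removed it was 0.115, 0.169 and 0.0615, below all 3 KitWvWv arrays, at -2.36 ± 0.65 and an adjusted p of 0.076. The tests of whether the Foxl2 effect differed in the Wnt4-/- background (2.25 ± 0.92, adjusted p = 0.53) or in the KitWvWv background (2.68 ± 0.92, adjusted p = 0.58) did not pass, and those tests called 0 collagens (0.379% and 0.022% of all genes; 3 and 1 members with an unadjusted p under 0.05 by limma). By the labels both single mutants were Foxl2+/-, so only the remaining Foxl2 allele was lost in these backgrounds. The P0 controls carry no such label, so background and Foxl2 dose cannot be told apart in those tests.

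Between testis and ovary at E13, 11 of 41 collagens were called, 10 higher in testis and 1 lower, against 8.14% of all genes (3.3% higher and 4.84% lower). Their median difference was 0.345 against -0.04 over all genes. The largest rise after Col8a1 was of Col25a1, a transmembrane chain, at 1.84, 0.808 and 0.851 in testis and 0.361, 0.335 and 0.147 in ovary (2.01 ± 0.32, adjusted p = 3.7e-05). Col4a4 followed at 0.458, 0.491 and 0.414 against 0.146, 0.106 and 0.0916 (1.92 ± 0.22, adjusted p = 5.9e-08), and its 2 other probe sets rose too, by 1.73 and 2.17. The groups do not overlap for either gene. Col4a1, the other type IV chain called, was 12.1 against 7.23 in group means (0.76 ± 0.12). Col13a1, a transmembrane chain (1.61 ± 0.34), Col14a1, a chain on fibril surfaces (1.80 ± 0.43), and Col15a1, of the basement membrane zone (1.10 ± 0.31), also rose. Col9a1 and Col9a2, chains of fibril-associated type IX, rose by 1.71 ± 0.53 and 1.38 ± 0.27, and Col27a1, a fibrillar chain, by 1.07 ± 0.16. Col12a1, a fibril-associated chain, was the 1 that fell, from 1.17, 0.801 and 0.651 in ovary to 0.246, 0.230 and 0.216 in testis (-1.84 ± 0.39, adjusted p = 0.0017). Its 3 other probe sets were at -1.63, -2.18 and -2.24. The other probe set of Col9a1 was at 0.20, not called, and its brightest lost the call with 16 units (adjusted p = 0.696). Of the 11 calls 6 held with each array left out in turn, and Col15a1, Col8a1 and Col9a1 were each lost in 4 or 5 of the 6 leave-outs. Of the markers listed for other cell types, 6 of 8 Sertoli and 5 of 5 Leydig markers rose in testis, 2 of 6 stroma and 2 of 6 peritubular and smooth muscle markers rose, and 2 of 4 mesonephric duct markers fell. Their part in the collagen differences was not tested.

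In newborns more collagens, and more of all genes, were called by sex than at E13. Of 41 collagens 16 were higher and 2 lower. Of all genes 28.9% were called either way (12.2% higher and 16.7% lower), against 8.14% at E13. The median was 0.54 over collagens and 0.07 over all genes, and the median over all probe sets was 0.17. These testes lacked Wnt4 by the methods, so sex and Wnt4 genotype cannot be told apart against these control ovaries. Col4a4 was the largest, at 3.42, 3.11 and 3.69 in testis and 0.385, 0.412 and 0.495 in ovary (2.96 ± 0.22, 7.78-fold on the fitted scale, adjusted p = 1.9e-12). Its other probe sets differed by 2.61 and 3.14, and the second probe set of its neighbour Col4a3 by 3.06, where the brighter Col4a3 probe set gave 1.01. Col23a1, a transmembrane chain, was 0.789, 1.05 and 0.939 against 0.268, 0.231 and 0.237 (1.87 ± 0.25, adjusted p = 5.7e-07). Its 3 probe sets all rose, by 1.23 to 1.87. Col13a1 was 0.864, 0.858 and 1.18 against 0.309, 0.217 and 0.209 (1.94 ± 0.34). Col5a3, a fibrillar chain, rose by 2.20 ± 0.49 from 0.124, 0.0413 and 0.0675 to 0.278, 0.589 and 0.289. Its other probe set was at 0.16, not called. Groups do not overlap for any of these 4 genes. Beside Wnt4-/- ovaries of P0, which also lack Wnt4 but are labelled Foxl2+/-, the 4 genes differed. Col4a4 (1.70, 1.67 and 1.59 in those ovaries) and Col13a1 were higher in every testis array. Col5a3 overlapped, and Col23a1 (1.10, 1.12 and 1.17) was lower in every testis array. That comparison was not tested.

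Among the other classes at P0, Col1a1 and Col1a2, the chains of type I, rose by 0.58 ± 0.14 and 0.95 ± 0.17, Col3a1 by 0.61 ± 0.17, Col5a1 by 0.59 ± 0.18 and Col11a1 by 1.07 ± 0.35. Col6a1, of the type VI beaded filaments, rose by 0.88 ± 0.19, and Col4a1 and Col4a6 by 0.55 ± 0.12 and 0.98 ± 0.26. Col15a1 (1.27 ± 0.31), Col25a1 (1.39 ± 0.32) and Col14a1 (1.38 ± 0.43) rose as at E13, although Col14a1 was 0.249, 1.73 and 0.495 in testis and overlapped the ovary arrays. Col8a1 and Col18a1 fell, the latter from 2.66, 2.81 and 3.19 in ovary to 2.11, 1.99 and 1.93 in testis (-0.52 ± 0.17). Without testis replicate 2 the count of calls was 12, because Col11a1, Col14a1, Col18a1, Col3a1, Col4a6 and Col5a1 were lost. Stroma markers rose 5 of 6 in testis and smooth muscle and peritubular markers 4 of 6, with summed levels of 25.4 to 39.9 and 9.53 to 16.8 against 9.52 to 16.6 and 4.09 to 6.45 in ovary. Germ cell markers fell 6 of 8. Whether these account for any collagen difference was not tested.

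The sex difference changed between E13 and P0 for 7 of 41 collagens, 3 more positive and 4 more negative at P0, against 8.83% of all genes (3.29% more positive, 5.54% more negative; median over all probe sets 0.12). Between these stages the Wnt4 genotype of the testes and the Foxl2 label of the control ovaries differ too. Col4a6, a type IV chain, stood at 0.239, 0.318 and 0.304 in testis against 0.535, 0.467 and 0.346 in ovary at E13, and at 0.483, 1.26 and 0.682 against 0.378, 0.290 and 0.473 at P0. All testis arrays were the lower ones at E13 and the higher ones at P0. The change was 1.60 ± 0.37 (adjusted p = 0.0056). Col9a2 went the other way, from 0.548, 0.751 and 0.845 against 0.260, 0.192 and 0.366 at E13 to 0.370, 0.479 and 0.512 against 0.526, 0.789 and 0.870 at P0 (-2.03 ± 0.38, adjusted p = 0.00048).

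**Figure D3:**
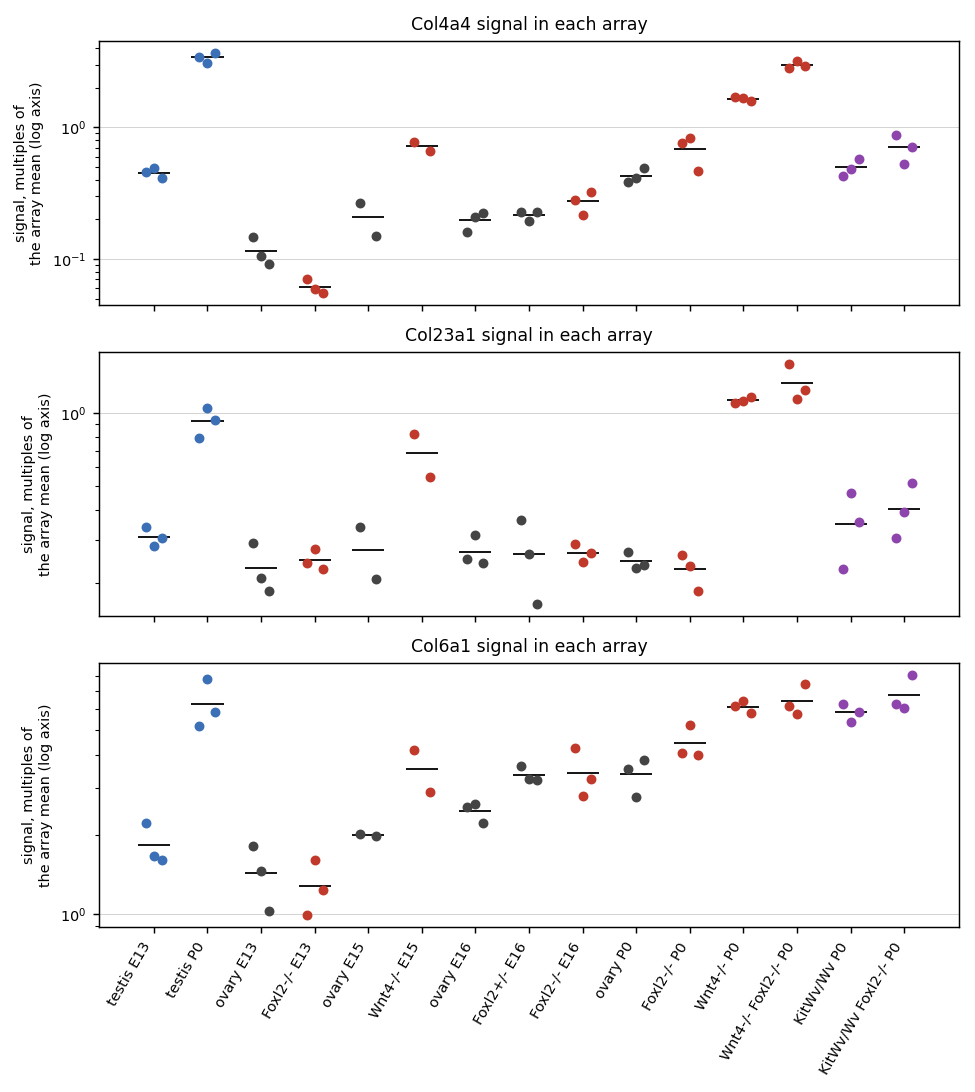
Each panel plots the signal of 1 gene, in multiples of the array mean on a log axis, in every array of the 15 groups named below the lowest panel, with a bar at the group mean. Col4a4 and Col23a1 reach their highest signals in P0 testis and in Wnt4-/- ovaries of P0 with or without Foxl2, while Col6a1 in testis stands at 1.60 to 2.21 at E13 and 5.19 to 7.83 at P0.

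With stage, 4 of 5 type VI chains rose in ovary from E13 to E16 and in testis from E13 to P0, and all 6 type IV chains rose in testis. In control ovary from E13 to E16, 13 of 41 were higher and 1 lower against 9.02% of all genes, 5.09% higher and 3.94% lower (median 0.39 against 0.16, and 0.23 over all probe sets). Type VI rose 4 of 5, Col6a1 from 1.80, 1.46 and 1.03 to 2.54, 2.62 and 2.22 (0.81 ± 0.19), Col6a2 (1.10 ± 0.21), Col6a3 from 0.701, 0.651 and 0.354 to 1.33, 1.31 and 1.04 (1.15 ± 0.29), and Col6a4 (1.58 ± 0.36). Col25a1 rose by 2.12 ± 0.32, Col20a1 by 1.63 ± 0.41, Col9a2 by 1.11 ± 0.27, Col8a2 by 0.95 ± 0.26, Col4a5 by 0.85 ± 0.21, Col3a1 by 0.77 ± 0.17, Col4a4 by 0.75 ± 0.22 and Col1a1 by 0.45 ± 0.14. Col9a1 fell by 1.95 ± 0.53, a call lost with 16 units (adjusted p = 0.423) and in 3 of 6 leave-outs. Col1a1 was lost in 5 and Col4a4 in 4 of the 6. Without E13 ovary replicate 3 the count was 4, without E16 ovary replicate 2 it was 7, under median scaling 6 were higher and 2 lower, and the fit of these arrays alone called 7. Col8a2 was 0.895, 0.531 and 0.333 at E13 and 1.25, 1.11 and 0.851 at E16, which overlap. The Foxl2+/- ovaries of E16 share the Foxl2 label of the E13 controls, and in them Col6a1 was 3.6, 3.3 and 3.2. For each chain called here except Col8a1, all Foxl2+/- arrays of E16 lay beyond all E13 arrays, in the direction of the call. That difference at the same label was not tested. Germ cell markers rose 3 of 8 over the same days.

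From E16 to P0 in the ovary, 7 were higher and 6 lower against 30.9% of all genes, 10.2% higher and 20.7% lower, with a median of 0.04 against -0.27 (-0.36 over all probe sets). Under median scaling the split was 12 higher and 0 lower, and under quantile normalization 7 and 2. Col4a1 (0.61 ± 0.12), Col4a2 (0.71 ± 0.22), Col18a1 (0.76 ± 0.17), Col4a4 (1.09 ± 0.22), Col9a1 (1.58 ± 0.53) and Col1a2 (0.44 ± 0.17) rose with Col8a1. Of these Col9a1 was lost with 16 units (adjusted p = 0.375) and in 3 of 6 leave-outs, and Col1a2 was lost in 5. Col20a1 (-1.26 ± 0.41), Col11a2 (-0.99 ± 0.36), Col22a1 (-0.97 ± 0.31), Col7a1, the anchoring fibril chain (-0.92 ± 0.28), Col16a1 (-0.76 ± 0.25) and Col4a5 (-0.69 ± 0.21) fell. Without P0 ovary replicate 3 the count was 7, with 5 higher and 2 lower, and without E16 ovary replicate 1 it was 8. Germ cell markers rose 5 of 8 and cartilage markers fell 6 of 9, and their part was not tested.

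In the testis from E13 to P0 the count of calls was the highest of the comparisons made, with 20 of 41 collagens higher and 4 lower against 22.8% of all genes, 9.06% higher and 13.8% lower (median 0.78 against -0.02). All 6 type IV chains rose, Col4a4 from 0.458, 0.491 and 0.414 to 3.42, 3.11 and 3.69 (2.88 ± 0.22, adjusted p = 6.9e-12), Col4a6 (1.36 ± 0.26), Col4a2 from 2.71, 1.76 and 1.68 to 4.50, 4.87 and 5.45 (1.29 ± 0.22), Col4a3 (0.86 ± 0.27), Col4a5 (0.78 ± 0.21) and Col4a1 (0.38 ± 0.12). Type VI rose 4 of 5, led by Col6a4 from 0.0350, 0.0399 and 0.0496 to 0.236, 0.196 and 0.316 (2.32 ± 0.36), Col6a1 from 2.21, 1.66 and 1.60 to 5.19, 7.83 and 5.86 (1.78 ± 0.19), and Col6a2 (1.46 ± 0.21). Of the fibrillar chains 6 rose, Col5a3 by 2.81 ± 0.49, Col1a2 by 1.34 ± 0.17, Col5a2 from 1.13, 1.36 and 1.27 to 2.35, 4.64 and 2.45 (1.25 ± 0.39), Col3a1 by 1.20 ± 0.17 and Col1a1 by 1.10 ± 0.14. Col12a1 (1.56 ± 0.39) and Col23a1 (1.54 ± 0.25) rose as well, although Col12a1 was 0.243, 1.82 and 0.764 at P0 and overlapped E13. Col25a1 (1.23 ± 0.32), Col8a2 (1.21 ± 0.26), Col6a3 (0.96 ± 0.29) and Col5a1 (0.92 ± 0.18) completed the rises. Col2a1, the cartilage fibril chain, fell from 0.233, 0.374 and 0.732 to 0.115, 0.161 and 0.167 (-1.40 ± 0.36), Col27a1 from 4.01, 4.42 and 3.98 to 2.25, 1.90 and 2.30 (-0.94 ± 0.16), Col26a1 from 1.59, 1.49 and 1.13 to 0.833, 0.858 and 0.789 (-0.74 ± 0.24) and Col18a1 by 0.47 ± 0.17. Of the 24 calls 14 held with each array left out in turn. The falls of Col18a1 and Col26a1 were lost in 6 and 5 of the 6 leave-outs, and the rises of Col6a3, Col4a1 and Col4a3 in 4, 3 and 3. With a constant of 5% Col5a3 rose by 2.13 and Col6a4 by 1.69. Smooth muscle and peritubular markers rose 5 of 6 in the same comparison and stroma markers 3 of 6.

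**Figure D4:**
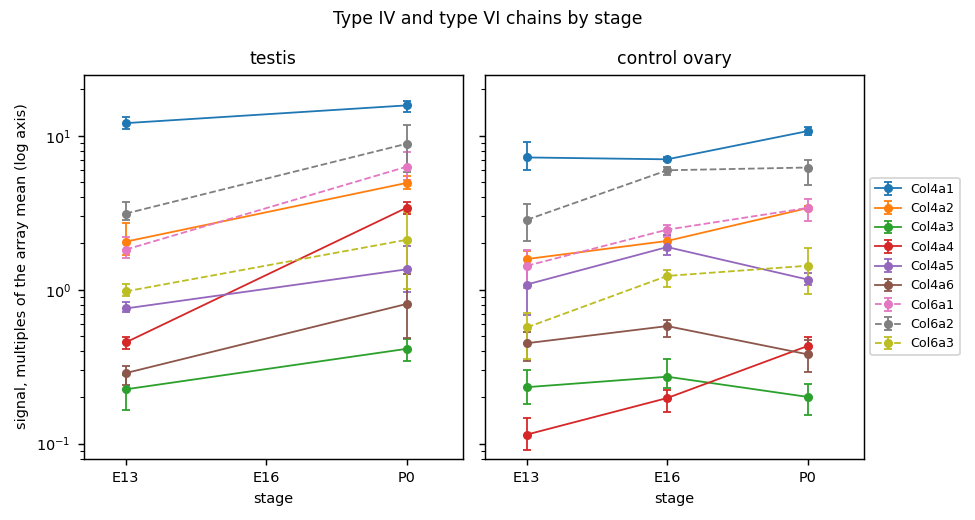
Signals of the type IV chains (solid lines) and of Col6a1, Col6a2 and Col6a3 of type VI (dashed lines) are plotted against stage in testis (left) and control ovary (right). They are multiples of the array mean on a log axis, with points at means and bars from the lowest to the highest of 3 arrays. Col6a4 and Col6a5 are not drawn. Testes were not sampled at E16. The 6 type IV chains rise in testis, and in ovary Col4a5 falls from E16 to P0.

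In Wnt4-/- ovaries of E15, 4 of 41 collagens rose and 0 fell, against 2.1% of all genes, 1.5% higher and 0.594% lower (median 0.41 against 0.04). They were Col8a1, Col4a4 at 0.776 and 0.664 against 0.267 and 0.149 (1.79 ± 0.27, adjusted p = 0.00014), Col23a1 at 0.820 and 0.548 against 0.340 and 0.207 (1.3 ± 0.31) and Col27a1 at 3.99 and 2.97 against 1.74 and 1.68 (1.0 ± 0.20). The groups do not overlap for any of these 4. Without Wnt4-/- replicate 1 the count was 1 (Col4a4) and without control replicate 2 it was 2. Summed stroma markers were 19.6 to 22.5 against 10.1 to 13.2, and their part was not tested. At P0, 12 rose and 2 fell against 16.9% of all genes, 7.07% higher and 9.87% lower (median 0.325 against -0.03). Col23a1 led at 1.10, 1.12 and 1.17 against 0.268, 0.231 and 0.237 (2.16 ± 0.25, adjusted p = 1.4e-07), and Col4a4 at 1.70, 1.67 and 1.59 against 0.385, 0.412 and 0.495 followed (1.92 ± 0.22). The groups do not overlap for either. Col4a3 was at 0.64 by its brightest probe set, not called, and at 2.36 by the other, called. Col5a3 (1.88 ± 0.49), Col4a6 at 0.883, 0.945 and 0.845 (1.23 ± 0.26), Col15a1 at 2.02, 1.71 and 1.82 against 1.06, 0.518 and 1.13 (1.10 ± 0.31), Col6a3 (1.04 ± 0.29), Col6a1 (0.86 ± 0.19), Col6a2 (0.79 ± 0.21), Col16a1 (0.86 ± 0.25), Col5a1 (0.61 ± 0.18), Col1a2 (0.57 ± 0.17) and Col27a1 (0.54 ± 0.16) rose. Col9a2 at 0.318, 0.298 and 0.305 against 0.526, 0.789 and 0.870 (-1.19 ± 0.27) and Col18a1 at 1.44, 1.93 and 1.38 against 2.66, 2.81 and 3.19 (-0.87 ± 0.17) fell. Without control replicate 2 the count was 6 and without Wnt4-/- replicate 1 it was 9. In the Wnt4-/- ovaries 5 of 8 Sertoli, 4 of 5 Leydig and 3 of 6 stroma markers rose and 7 of 8 germ cell markers fell, with summed stroma levels of 28.5 to 30.9 against 9.52 to 16.6, and summed cartilage markers at 10.6 to 13.2 against 0.724 to 1.10, of which Cnmd made 8.89 to 11.0. Their part in the collagen differences was not tested. The comparisons with P0 testis and with Wnt4-/- ovary share the P0 control arrays.

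Ovaries lacking both Wnt4 and Foxl2 were compared with P0 testes, which also lacked Wnt4. Of the collagens 2 of 41 were called (2.2% of all genes, 1.34% higher and 0.858% lower), with Col25a1 lower at 1.16, 1.16 and 0.939 against 2.90, 2.22 and 2.57 (-1.23 ± 0.32, adjusted p = 0.040) and Col26a1 higher at 1.71, 1.63 and 1.70 against 0.833, 0.858 and 0.789 (1.02 ± 0.24, adjusted p = 0.020). Col25a1 was lost in 5 and Col26a1 in 4 of the 6 leave-outs, and the other Col26a1 probe set was at -0.24. A p that misses the threshold does not show that the rest are alike. Col4a4 was 2.82, 3.18 and 2.91, at -0.20 ± 0.22 from testis and overlapping it. Col23a1 was 1.60, 1.14 and 1.24, above every testis array, at 0.51 ± 0.25 and not called. Removing Foxl2 from the Wnt4-/- ovary called 1 collagen, Col8a1 (0.924% of all genes, 0.412% higher and 0.511% lower), and moved Col4a4 by 0.84 ± 0.22 without passing (adjusted p = 0.063), although its arrays lie above every Wnt4-/- array. Removing Foxl2 from the KitWvWv ovary called 0 (1.14% of all genes, 0.286% higher and 0.858% lower; 4 with an unadjusted p under 0.05), and the second Col8a1 probe set, at -3.32, was called there.

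In the germ cell poor KitWvWv ovary of P0, 7 collagens rose and 2 fell against 30.6% of all genes, 17.3% higher and 13.3% lower (median 0.44 against 0.23, and 0.28 over all probe sets). Under median scaling the split was 3 and 4, and under quantile normalization 6 and 2. Col5a3 rose from 0.124, 0.0413 and 0.0675 to 0.405, 0.258 and 0.296 (2.0 ± 0.49, adjusted p = 0.0027) and Col7a1 from 0.106, 0.167 and 0.0919 to 0.308, 0.257 and 0.257 (1.14 ± 0.28). Col15a1 (0.94 ± 0.31), Col6a2 (0.92 ± 0.21), Col27a1 (0.91 ± 0.16), Col6a1 (0.79 ± 0.19) and Col9a2 (0.74 ± 0.27) also rose. Col9a1 fell from 0.0936, 0.0855 and 0.119 to 0.00308, 1.27e-05 and 0.0157 (-2.85 ± 0.53, adjusted p = 0.00012). Some of these mutant values lie below the added constant, so the size depends on it, from -1.41 to -6.82 with the constants tried. Col2a1 fell from 0.101, 0.0972 and 0.106 to 0.0499, 0.0343 and 0.0258 (-1.29 ± 0.36). The other Col9a1 probe set was at -0.16. Germ cell markers fell 8 of 8 and endothelial markers rose 4 of 8 in this comparison.

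Ranges of group means over the 15 groups place the members, starting with the 5 called in no comparison. Col24a1, a fibrillar chain, ran from 0.0153 to 0.0593, Col10a1, the hypertrophic cartilage chain, from 0.0486 in E13 testis to 0.132, Col6a5 from 0.0328 to 0.0699, Col17a1, a hemidesmosome chain, from 0.0771 to 0.249, and Col19a1 from 0.101 to 0.302. Of the 41 members 35 exceeded the median over all probe sets (0.256) in their highest group. Among the fibrillar chains Col1a1 ran from 10.8 to 23.9, Col1a2 from 11.1 to 36.4, Col3a1 from 8.74 to 27.3, Col5a1 from 3.56 to 8.20, Col5a2 from 0.708 to 3.33, Col11a1 from 0.310 to 1.09, Col11a2 from 0.0126 to 0.0396, Col2a1 from 0.0367 to 0.446, Col5a3 from 0.0212 to 0.386 and Col27a1 from 1.71 to 4.14. Of type IV, Col4a1 ran from 6.50 to 15.9, Col4a2 from 1.40 to 4.94, Col4a3 from 0.188 to 0.413, Col4a5 from 0.755 to 1.89 and Col4a6 from 0.287 to 0.891. Col4a4 had the widest range of type IV, from 0.0616 in Foxl2-/- ovaries of E13 to 3.41 in P0 testis, and Col8a1 the widest of all 41 members (0.0159 to 1.72). Of type VI, Col6a1 ran from 1.27 to 6.79, Col6a2 from 2.84 to 14.8, Col6a3 from 0.477 to 2.86 and Col6a4 from 0.0415 to 0.325. In the basement membrane zone Col7a1 ran from 0.102 to 0.289, Col15a1 from 0.623 to 2.94 and Col18a1 from 1.27 to 2.89. Col8a2 ran from 0.576 to 1.87, and of the transmembrane chains Col13a1 from 0.241 to 0.968, Col23a1 from 0.227 to 1.33 and Col25a1 from 0.281 to 2.57. Col26a1 ran from 0.826 to 2.3. Of the fibril-associated chains Col9a1 ran from 0.00628 in KitWvWv ovaries to 0.460 in E13 testis, Col9a2 from 0.273 to 1.20, Col12a1 from 0.231 in E13 testis to 1.46, and Col14a1 from 0.104 to 0.824. Col16a1 ran from 0.975 to 2.14, Col20a1 from 0.126 to 0.387 and Col22a1 from 0.0498 to 0.177.

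**Figure D5:**
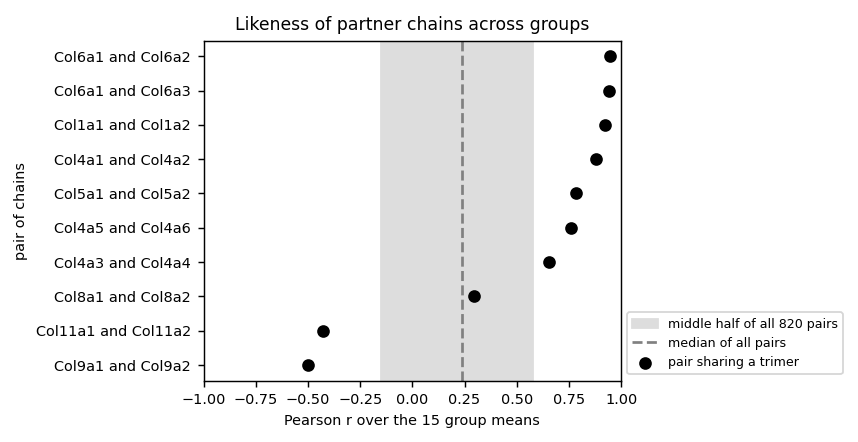
Points give Pearson r between 2 chains known to share a trimer over the 15 group means of log2 signal, with the range from the lower to the upper quartile of all 820 member pairs shaded and their median dashed. The type VI and type I pairs stand at 0.925 to 0.949, the chains of types IX and XI below 0.

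Chains that share a trimer differed in how their levels ran together across the 15 group means. The correlation was 0.949 for Col6a1 and Col6a2, 0.941 for Col6a1 and Col6a3, 0.925 for Col1a1 and Col1a2, 0.88 for Col4a1 and Col4a2, 0.782 for Col5a1 and Col5a2, 0.759 for Col4a5 and Col4a6 and 0.654 for Col4a3 and Col4a4. It was 0.297 for Col8a1 and Col8a2, -0.427 for Col11a1 and Col11a2 and -0.499 for Col9a1 and Col9a2. Col9a1 was below the added constant in 7 arrays and Col11a2 in 4. Col4a3 was read from its brightest probe set, which moved less than its other probe set in P0 testis and Wnt4-/- ovary. All 820 member pairs had a median of 0.237, with quartiles of -0.151 and 0.578. High values were not particular to partners. Col1a1 ran closest with Col3a1 (0.953), Col4a1 with Col15a1 (0.948), Col5a1 with Col1a1 (0.925) and Col4a5 with Col16a1 (0.89). Of the first-named chains of these pairs, only Col6a1 had a partner as its closest member. Points share arrays and groups, so these are descriptions.

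The genes that build, bind and anchor collagens were followed from lists chosen with earlier results of these data known. Their counts stand against the share of all genes that rose, 7.07% in Wnt4-/- ovary at P0, 1.5% at E15, 12.2% in P0 testis and 3.3% in E13 testis, and with Foxl2 loss averaged over stages 0.748% rose and 1.12% fell. Collagen modifying and folding genes rose 13 of 17 in Wnt4-/- ovary at P0 (median 0.75 against -0.03 over all genes), led by Crtap (0.99 ± 0.17), of the prolyl 3-hydroxylation complex, P3h3 (1.14 ± 0.20) and Plod2, a lysyl hydroxylase (1.18 ± 0.22). They rose 4 of 17 in P0 testis, where Plod2 led at 1.53 ± 0.22, and 1 of 17 in E13 testis, Plod2 at 1.25 ± 0.22. Between E13 and P0 in testis 0 of 17 were called, against 22.8% of all genes. Basement membrane partners, the laminins, nidogens and perlecan, rose 5 of 14 in testis at E13 and 8 of 14 at P0, where Lamc3, a laminin gamma chain, was at 4.15 ± 0.38, Lama2 at 2.14 ± 0.28 and Lamb1 at 1.0 ± 0.12. They rose 3 of 14 with Wnt4 loss at E15, led by Nid2 at 1.28 ± 0.19, and 6 of 14 at P0, with Lamc3 at 3.22 ± 0.38. Fibril-binding proteoglycans and matricellular genes rose 7 of 10 in P0 testis (Sparc 0.74 ± 0.09, Ogn 2.76 ± 0.36), 4 of 10 with Wnt4 loss at E15 (Dcn 1.62 ± 0.34) and 5 of 10 at P0 (Aspn 3.06 ± 0.56). With Foxl2 loss averaged over stages, 1 partner, Lama1, fell (-0.53 ± 0.12) and 1 processing gene, Pcolce, rose (0.44 ± 0.12).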

How the data were processed

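Gonad RNA was extracted with the MELT system, amplified linearly with the Pico Ovation kit and hybridised to Affymetrix MOE430 v.2 arrays. The deposited values are linear intensities, made by the authors with the plier program and then brought to 1 overall mean per array. GCOS 1.3 is named in the submitters' processing notes without a role, and a genome build is not given in the sources used here. The authors' own test program was not run.

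Of 45071 deposited probe sets 64 controls were left out. Intensities were divided by the common mean, 0.01 was added, and log2 values of 43 arrays entered a linear model of 15 group means (R 4.3.3 and limma 3.58.1, empirical Bayes with an intensity trend), with Benjamini-Hochberg adjustment over 45007 probe sets in each comparison and calls at an adjusted p under 0.05. Of these probe sets 34927 have 1 gene symbol, 930 several and 9150 none in the platform's annotation, and 34723 matched RefSeq. A gene was read from its brightest probe set, and 1 collagen chain is not reported here. Precision is limited by 2 or 3 arrays, each from 1 mouse, per group. Tables and plots were made in Python 3.11.15 with pandas 2.3.3 and matplotlib 3.10.9. The fit was tested on simulated data.

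Every member is named with its range, and in each comparison each called member, or the 12 largest in a direction. Values in every array are given for up to 3 members of a class with the widest range, and pathway genes by smallest adjusted p. The members and lists were chosen with earlier results of these data known. Alternatives were other constants (5% of the mean, or 16 units), quantile normalization, median scaling, a filter on dim probe sets, only the arrays compared, the mean of a gene's probe sets, the replicate number as a block, and leaving out each array. Replicate numbers were checked for pairing by the correlation of deviations from group means. It was 0.132 to 0.158 in the 3 pairs of Foxl2-/- and control ovaries at E13, which were taken as paired, and not above 0.1 in every pair of any other comparison.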

Additional observations from a re-analysis of the deposited data

Results flagged for a closer look

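The difference between testis and ovary changed from E13 to P0 for 7 collagens, by an interaction term in limma. Col8a1 changed by -5.19 (SE 0.918, adjusted p = 0.00027) and was higher in testis at E13 and lower at P0. With constants of 5% of the mean and 16 units the Col8a1 change was -3.98 and -5.97. Col9a2 changed by -2.03 (SE 0.377, adjusted p = 0.00048), Col27a1 by -1.08 (SE 0.231, adjusted p = 0.00235) and Col18a1 by -1.01 (SE 0.24, adjusted p = 0.00656). Col4a6 changed by 1.60 (SE 0.374, adjusted p = 0.00558), Col23a1 by 1.43 (SE 0.357, adjusted p = 0.00997) and Col4a4 by 1.04 (SE 0.31, adjusted p = 0.0343), the last lost in 7 of 12 leave-outs. With the mean of a gene's probe sets Col4a3, not among the 7, was also called (1.76, adjusted p = 0.000699). The P0 testes were Wnt4-null by the methods, so stage and genotype cannot be told apart in these terms. The E13 control ovaries were Foxl2+/- by the labels and those of P0 carry no genotype label. Stage and Foxl2 dose therefore cannot be told apart in the ovary part either.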

How the results depend on the processing

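No call of a member reversed under any alternative. Of 119 member calls 62 held and 57 were lost at least once with single arrays left out, 0 with a change of sign. Counts of called collagens moved by more than 1.5 times as follows. With the 5% constant 2 were called for Foxl2 loss in Wnt4-/- ovaries and 1 in KitWvWv ovaries. With 16 units these were 0 in Wnt4-/-, 1 for Foxl2 loss at E13 and 1 between double mutant and testis. Quantile normalization gave 3 for the Foxl2 average (adding Col6a2 and Col8a2), 2 at E13 and 1 in KitWvWv. Median scaling gave 8 from E13 to E16 in ovary, 2 for Wnt4 loss at E15 and 1 for Foxl2 loss at E13. The dim filter gave 8 from E16 to P0, 2 for the Foxl2 average, 1 at E13 and 2 for Foxl2 loss in Wnt4-/-. Only the arrays compared gave 7 from E13 to E16, 1 for Wnt4 loss at E15 and 2 for Foxl2 loss in Wnt4-/-. The mean of probe sets gave 1 for Foxl2 loss in KitWvWv and 1 between double mutant and testis. The replicate block gave 1 for Foxl2 loss at E13 (Col4a4) and 1 in KitWvWv (Col8a1), and elsewhere moved no count by over 1.5 times. The causes were not tested. For testis against ovary at P0 the split of higher and lower was 17 and 1 with quantile normalization and 13 and 3 with median scaling.

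With single arrays left out the counts ran from 8 to 13 for testis against ovary at E13, 12 to 21 at P0, 6 to 9 for their difference, 4 to 16 and 7 to 13 for the ovary stages, 19 to 24 for testis stages, 1 to 3 for the Foxl2 average, 0 to 2 at E13, 0 to 0 at E16, 1 to 1 at P0, 0 to 0 for Foxl2+/-, 1 to 4 and 6 to 15 for Wnt4 loss at E15 and P0, 7 to 9 for KitWvWv, 0 to 1 for Foxl2 loss in either background, 0 to 2 for double mutant against testis, and 0 to 0 for both interactions. Dim chains, among them Col9a1 and Col11a2, had arrays below the added constant, so the sizes of their differences depend on it.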
